A study of Mus musculus with 12 samples.

Results

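Transcripts of 10 genes of glutathione conjugation, glutathione synthesis and NRF2-driven detoxification were followed in 12 mouse liver RNA-seq libraries. The members were the rows of the deposited expression table whose gene name was Gsta2, Gsta3, Gsta4, Gstm1, Gstm3, Gstp1, Gclc, Gclm, Nqo1 or Srxn1, 10 of 35275 genes, and all 10 were found and passed the filter on low values. The samples fall into 4 groups of 3. Mice labelled with an Hnf4a knockout in the liver were fed a high fat diet (KO HFD) or vivarium chow (KO chow), and mice labelled wild type were fed the high fat diet (WT HFD) or chow (WT chow). The sources used here give neither the promoter behind the knockout nor the strain, sex or age of the mice or the length of feeding. Levels are FPKM, reads on a gene scaled to its length and to the depth of the library, so levels of different genes can be set side by side.

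Glutathione transferases join the tripeptide glutathione to electrophiles, which makes drugs, toxins and lipid peroxidation products soluble and ready for export. Hepatocytes are among the richest cells in these enzymes. NRF2, encoded by Nfe2l2, is the transcription factor that raises many of them: KEAP1 normally hands it to the CUL3 ubiquitin ligase, oxidants and electrophiles block this, and NRF2 then binds antioxidant response elements together with a small MAF protein. Nqo1 and Srxn1 are among the most widely used readouts of its activity in mouse tissue, and Gclc and Gclm make the ligase that limits glutathione synthesis.

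Each library held between 15705196 and 20311766 reads on genes. The targeted gene did not follow the genotype label: Hnf4a spanned 98.8 to 158 FPKM over the 6 libraries labelled KO and 116 to 133 FPKM over WT HFD, and WT chow 1 to 3 had 126, 75.8 and 0.0973 FPKM, so KO and WT stand here for the labels only. The hepatocyte markers (Alb, Apoa1, Ttr, Serpina1c, Hnf4a and Cyp2e1) summed to between 31709 and 61819.8 FPKM in 10 libraries, and WT chow 2 and 3 had sums of 20074 and 28.6 FPKM. Brown fat markers reached a sum of 15983 FPKM in WT chow 3, with 5.94 to 127 FPKM elsewhere. Fewer hepatocytes and less of a transcript per hepatocyte cannot be told apart in such bulk libraries. WT chow 2 and WT chow 3 also stood apart across all genes, with a median correlation to the other libraries of 0.806 and 0.576, while the other 10 libraries correlated pairwise at 0.931 or more. Each result is therefore also given for these 10 libraries. Markers of exocrine pancreas summed to 59.7, 33.9 and 38.1 FPKM in KO HFD 1 to 3, and the other groups had 0 FPKM except WT chow 1 with 4.47 FPKM.

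The clearest pattern among the members lay in a single library, KO HFD 2, which was singled out after its values were seen. Gsta2, Gstm1, Gstm3, Nqo1 and Srxn1 were each highest of the 10 libraries there, and each by at least 1.8 times the next library. Of the 12251 genes tested, 5.09% were highest in KO HFD 2 and 0.302% (37 genes) were so by at least 1.5 times the next library. Of these 37 genes, 5 were members. The filter on low values took the mean over all 12 libraries, so genes that were low in these 10 could pass it. No member differed between the 4 labelled groups past the threshold in the fit with all 12 libraries, in any of 5 contrasts.

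**Figure D1:**
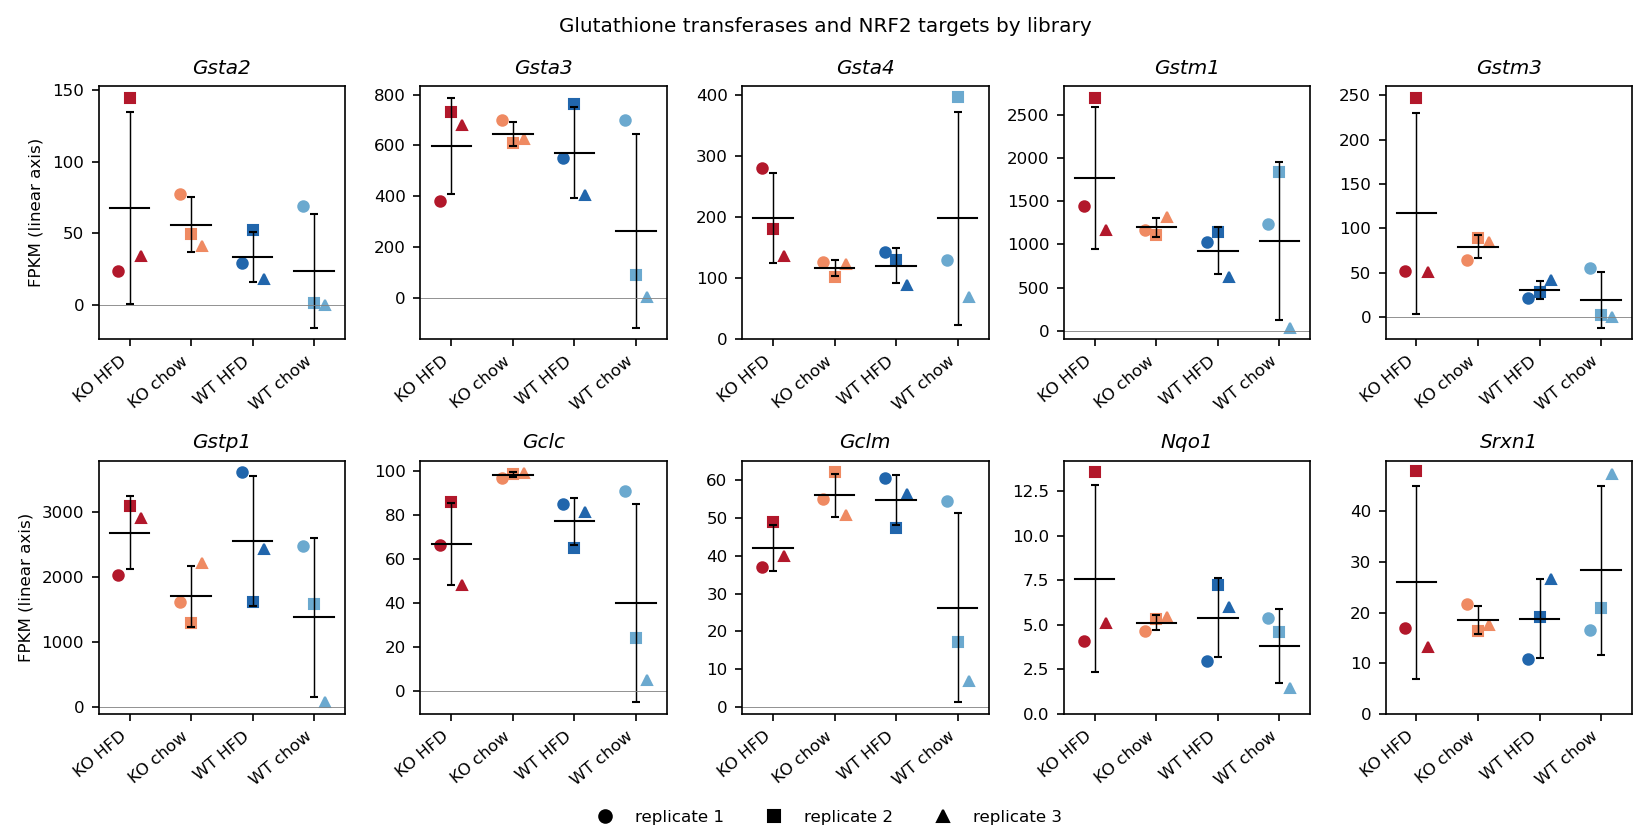
FPKM of each member by library on a linear axis, with the groups left to right KO HFD, KO chow, WT HFD and WT chow. The symbol gives the replicate number, the horizontal line is the mean and the bar is 1 SD (n = 3). KO HFD 2 (dark red square) is the highest point for Gsta2, Gstm1, Gstm3, Nqo1 and Srxn1, and WT chow 2 and 3 (light blue square and triangle) are far below the other libraries for Gsta2, Gsta3, Gstm3, Gclc and Gclm.

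Gclc and Gclm, the catalytic and modifier subunits of glutamate-cysteine ligase, varied little outside WT chow 2 and WT chow 3. The highest of the 10 libraries was 1.68 times the lowest for Gclm and 2.05 times for Gclc, and of the other members only Gsta3, at 2.0 times, was as steady. Gclc (ENSMUSG00000032350, chr9:77754535-77794485 on GRCm38, plus strand) had 66.5, 86.1 and 48.4 FPKM in KO HFD 1 to 3, 97.2, 99.0 and 99.4 FPKM in KO chow 1 to 3, 85.0, 65.1 and 81.7 FPKM in WT HFD 1 to 3, and 91.2, 24.3 and 5.15 FPKM in WT chow 1 to 3. Every KO HFD library lay below every KO chow library, and the KO chow libraries were within 3 FPKM of each other. Gclm (ENSMUSG00000028124, chr3:122245557-122269984, plus strand) had 37.1, 48.9 and 40.1 FPKM in KO HFD, 55.1, 62.2 and 50.8 FPKM in KO chow, 60.6, 47.5 and 56.5 FPKM in WT HFD, and 54.5, 17.3 and 6.95 FPKM in WT chow. Here too KO HFD and KO chow did not overlap, with KO HFD lower.

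The mean of Gclc was 67.0 ± 18.8 FPKM in KO HFD and 98.5 ± 1.18 FPKM in KO chow (SD, n = 3 each, two-sided exact permutation p = 0.1, which is the lowest value possible with 3 libraries a group). The mean of Gclm was 42.0 ± 6.13 FPKM in KO HFD and 56.0 ± 5.73 FPKM in KO chow (SD, n = 3 each, exact permutation p = 0.1). Of all genes tested, 21.6% were lower in KO HFD than in KO chow without overlap, so the same ordering in these 2 members is common in this table. Neither gene passed in the limma fit of log2(FPKM + 1), which pools the spread of all groups. With 10 libraries the log2 difference KO HFD minus KO chow was −0.59 for Gclc (SE 0.20, 95% interval −1.04 to −0.13, limma adjusted p = 0.0931) and −0.41 for Gclm (SE 0.15, interval −0.76 to −0.07, adjusted p = 0.110). After rescaling to TPM, in which every library sums to the same total, both passed with 10 libraries, at −0.78 for Gclc (limma adjusted p = 0.0311) and −0.61 for Gclm (limma adjusted p = 0.0373). In that fit 2082 of the 12251 genes tested were called lower and 149 higher, so such a call is common there. That scaling moved the median of all genes to −0.23, and relative to it the differences were −0.56 and −0.38. In leave-one-out fits of the 10 libraries on the TPM scale, Gclc passed in 5 of 9 and Gclm in 2 of 9, against 0 of 9 for both on the FPKM scale.

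The 250 bases before the start of Gclm are shown because they hold a match to the core of the antioxidant response element (TGACNNNGC), on the strand opposite to the gene, at bases −134 to −126 counted back from the start. The window is chr3:122245307-122245556, plus strand, from RefSeq on GRCm38.p6, 5′ to 3′, with the match in capitals as it reads on the gene's strand.
Gclm: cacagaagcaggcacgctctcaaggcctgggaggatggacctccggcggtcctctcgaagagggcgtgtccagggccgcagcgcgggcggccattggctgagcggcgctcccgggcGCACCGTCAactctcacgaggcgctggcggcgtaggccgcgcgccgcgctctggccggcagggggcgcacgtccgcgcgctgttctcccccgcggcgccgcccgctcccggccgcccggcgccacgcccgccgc
The same core was found in 12.4% of 32851 promoter windows of RefSeq, searched on both strands, and in 3 of the 8 members that have a window in that table. No window was used for Gclc or Gsta4.

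The alpha class transferases Gsta2, Gsta3 and Gsta4 behaved in 3 different ways. Gsta3 (ENSMUSG00000025934, chr1:21240589-21265661, plus strand), the most abundant of them and in mice a detoxifier of aflatoxin epoxide, had 381, 733 and 682 FPKM in KO HFD, 699, 611 and 627 FPKM in KO chow, 550, 762 and 404 FPKM in WT HFD, and 702, 89.2 and 3.0 FPKM in WT chow. The groups overlapped, and the only values under 381 FPKM were those of WT chow 2 and WT chow 3. Gsta2 (ENSMUSG00000057933, chr9:78331018-78355788, minus strand), an inducible alpha enzyme, had 23.8, 145 and 33.9 FPKM in KO HFD, 77.6, 49.7 and 40.8 FPKM in KO chow, 29.2, 52.5 and 18.0 FPKM in WT HFD, and 69.3, 1.46 and 0 FPKM in WT chow. KO HFD 2 was 1.87 times the next library, KO chow 1, while KO HFD 1 and 3 were below all KO chow libraries. The value of 0 in WT chow 3 rests on 0 reads, and 3 reads there would be 0.209 FPKM.

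Gsta4 (ENSMUSG00000032348, chr9:78191966-78209348, plus strand), which conjugates the lipid peroxidation product 4-hydroxynonenal, followed other libraries. It had 280, 180 and 136 FPKM in KO HFD, 126, 102 and 123 FPKM in KO chow, 143, 129 and 88.9 FPKM in WT HFD, and 129, 396 and 68.2 FPKM in WT chow. Its highest values were in WT chow 2, where Gsta2 and Gsta3 were low, and in KO HFD 1. KO HFD lay above KO chow without overlap, at 198 ± 74.0 FPKM and 117 ± 13.2 FPKM (SD, n = 3 each, exact permutation p = 0.1, the smallest possible), as did 9.98% of all genes tested. The log2 difference with 10 libraries was 0.70 (SE 0.27, interval 0.09 to 1.31, limma adjusted p = 0.125). KO HFD 1 was the highest of the 10 libraries by 1.5 times for 8.36% of all genes tested.

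Gsta3 is shown with its match to the antioxidant response element core, at −121 to −113, in chr1:21240335-21240584, plus strand (RefSeq, GRCm38.p6, match in capitals).
Gsta3: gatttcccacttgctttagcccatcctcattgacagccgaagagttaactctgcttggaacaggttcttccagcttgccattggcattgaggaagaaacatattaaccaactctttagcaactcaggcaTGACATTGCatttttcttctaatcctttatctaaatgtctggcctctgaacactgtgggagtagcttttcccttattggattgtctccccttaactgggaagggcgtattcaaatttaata
Of the 3 members with a match, Gsta3 had 112% of its median over the 10 libraries in KO HFD 2, Gclm 92.7% and Srxn1, whose match lies after the start, 278%.

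Among the mu class, Gstm1 (ENSMUSG00000058135, chr3:108012255-108017973, minus strand) is a main liver transferase and Gstm3 (ENSMUSG00000004038, chr3:107963696-107969283, minus strand) is its strongly inducible neighbour. Gstm1 had 1441, 2704 and 1168 FPKM in KO HFD, 1165, 1111 and 1319 FPKM in KO chow, 1030, 1140 and 618 FPKM in WT HFD, and 1241, 1841 and 36.3 FPKM in WT chow. Gstm3 had 52.3, 248 and 50.3 FPKM in KO HFD, 64.7, 88.6 and 84.8 FPKM in KO chow, 21.6, 27.8 and 41.9 FPKM in WT HFD, and 55.8, 2.71 and 0 FPKM in WT chow. For both genes every KO HFD library was above every WT HFD library, and KO HFD 2 was the highest, at 1.88 times the next of the 10 libraries for Gstm1 and 2.80 times for Gstm3. The genes parted in WT chow 2, which had the second highest Gstm1 of the 12 libraries and the second lowest Gstm3.

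Gstm3 averaged 117 ± 113 FPKM in KO HFD and 30.4 ± 10.4 FPKM in WT HFD, and Gstm1 averaged 1771 ± 820 FPKM in KO HFD and 929 ± 275 FPKM in WT HFD (SD, n = 3 each, exact two-sided permutation p = 0.1 for both, the smallest possible). Of all genes tested, 7.37% were higher in KO HFD than in WT HFD without overlap. With 10 libraries the log2 difference KO HFD minus WT HFD was 1.54 for Gstm3 (SE 0.54, interval 0.32 to 2.75, limma adjusted p = 0.369) and 0.88 for Gstm1 (SE 0.34, interval 0.12 to 1.64, adjusted p = 0.371). With 9 libraries, KO HFD 2 also left out, they were 0.79 (limma adjusted p = 0.249) and 0.53 (adjusted p = 0.390). Gstm3 was also at 79.4 ± 12.8 FPKM in KO chow and 19.5 ± 31.5 FPKM in WT chow (SD, n = 3 each), where WT chow 1 alone had 55.8 FPKM.

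Gstp1 (ENSMUSG00000060803, chr19:4035407-4037921, minus strand), the pi class enzyme, was the most abundant member, with a median of 2316 FPKM over the 10 libraries. It had 2034, 3087 and 2901 FPKM in KO HFD, 1605, 1289 and 2207 FPKM in KO chow, 3606, 1619 and 2425 FPKM in WT HFD, and 2479, 1574 and 72.5 FPKM in WT chow. All groups overlapped and WT HFD 1, not KO HFD 2, was the highest. Its log2 difference KO HFD minus KO chow with 10 libraries was 0.67 (SE 0.34, interval −0.09 to 1.42, limma adjusted p = 0.222).

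Some of these transferases have near-identical relatives, which bears on how reads could be assigned. Of the 100-base windows along the GENCODE transcript, 52.8% for Gstp1, 35.0% for Gsta2, 13.8% for Gstm3 and 7.73% for Gstm1 also occur exactly in another gene's transcript, and 0% for the other 6 members. The coding sequence of Gsta2 is 97.5% identical to that of Gsta1, that of Gstp1 is 98.1% identical to Gstp2, and Gstm1 and Gstm3 are 89.5% identical. The gene that shares most windows with Gsta2 is Gm10639, a predicted gene whose coding sequence was not compared. Gsta2, Gsta1 and Gm10639 were all highest in KO HFD 2, and how their reads were divided was not tested. Nqo1 and Srxn1, which have no shared window, were highest in the same library, which says nothing about how the reads of Gsta2, Gsta1 and Gm10639 were divided.

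Nqo1 (ENSMUSG00000003849, chr8:107388225-107403206, minus strand), a quinone reductase, and Srxn1 (ENSMUSG00000032802, chr2:152105516-152111376, plus strand), the sulfiredoxin that repairs over-oxidised peroxiredoxins, were the least abundant members. Nqo1 had 4.08, 13.6 and 5.07 FPKM in KO HFD, 4.63, 5.33 and 5.41 FPKM in KO chow, 2.96, 7.25 and 5.97 FPKM in WT HFD, and 5.39, 4.58 and 1.44 FPKM in WT chow. Srxn1 had 16.9, 47.9 and 13.2 FPKM in KO HFD, 21.7, 16.4 and 17.5 FPKM in KO chow, 10.8, 19.1 and 26.6 FPKM in WT HFD, and 16.6, 20.9 and 47.4 FPKM in WT chow. For both genes all groups overlapped and KO HFD 1 and 3 lay within the range of the other libraries, so that KO HFD 2 set the group mean.

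KO HFD 2 held 405 reads on Nqo1 and 2584 on Srxn1, against 88 to 197 and 581 to 1315 in the other 9 libraries. The log2 differences KO HFD minus KO chow with 10 libraries were 0.33 for Nqo1 (SE 0.39, limma adjusted p = 0.618) and 0.25 for Srxn1 (SE 0.45, adjusted p = 0.749). With 9 libraries, KO HFD 2 also left out, they were −0.14 and −0.29. Srxn1 was nearly as high in WT chow 3, at 47.4 FPKM, where hepatocyte markers were near 0, whereas Nqo1 was at its lowest there.

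The promoter windows of Srxn1 and Nqo1 are shown because both genes were highest in KO HFD 2 and their windows (RefSeq, GRCm38.p6) differ in what they hold. Srxn1 (chr2:152105274-152105523, plus strand) has 2 copies of TGAGTCA, at −102 to −96 and −45 to −39, in capitals, and a match to the antioxidant response element core at 29 to 37 after the start, outside the printed stretch. Nqo1 (chr8:107403206-107403455, minus strand) has no match to any motif searched. Each search covered 300 bases, 250 before and 50 after the start, so elements further away would not be found.
Srxn1: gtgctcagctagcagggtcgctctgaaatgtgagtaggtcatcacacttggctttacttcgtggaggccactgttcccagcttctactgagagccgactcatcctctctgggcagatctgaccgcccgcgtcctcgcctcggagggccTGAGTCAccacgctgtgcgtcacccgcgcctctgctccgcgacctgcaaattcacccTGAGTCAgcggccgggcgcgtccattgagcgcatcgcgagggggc
Nqo1: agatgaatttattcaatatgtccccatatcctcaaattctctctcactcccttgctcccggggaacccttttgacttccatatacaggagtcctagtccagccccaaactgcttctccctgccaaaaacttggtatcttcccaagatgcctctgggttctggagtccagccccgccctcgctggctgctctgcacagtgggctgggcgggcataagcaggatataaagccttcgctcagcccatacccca
TGANTCA, searched after the sequences had been seen, matched in 7.81% of all windows, and among members also in Gstp1 at −74 to −68. The element CAAAGTCCA, specific to HNF4, was in 0.475% of all windows and in 0 of the 8 members with a window.

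KO HFD 2 against the other 9 libraries is best seen relative to the median of the 10. It had 458% of the median for Gstm3, 321% for Gsta2, 278% for Srxn1, 254% for Nqo1 and 232% for Gstm1. The other 5 members stood at 139% (Gsta4), 133% (Gstp1), 112% (Gsta3), 101% (Gclc) and 92.7% (Gclm). These 5 stayed within the range of the other 9 libraries. The range of Gstm3 over the 10 libraries, highest over lowest, was 11.5-fold, and without KO HFD 2 it was 4.11-fold. For Gsta2 these ranges were 8.04-fold and 4.30-fold, and for Gclm 1.68-fold with or without that library.

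KO HFD 2 did not stand apart in the whole-library measures. Its 19168629 reads on genes lay within the range of all libraries, its median correlation with the others was 0.976, and its hepatocyte markers summed to 37200.0 FPKM, between KO HFD 1 (31709) and KO HFD 3 (46258). Its exocrine pancreas markers, at 33.9 FPKM, were the lowest of the KO HFD libraries, and its macrophage markers summed to 27.3 FPKM, within the 21.6 to 78.5 FPKM of the other 9. Cholangiocyte markers summed to 28.8 FPKM, the highest of the 10 libraries, against 11.5 to 25.7 FPKM in the other 9, and their part in the result was not tested.

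**Figure D2:**
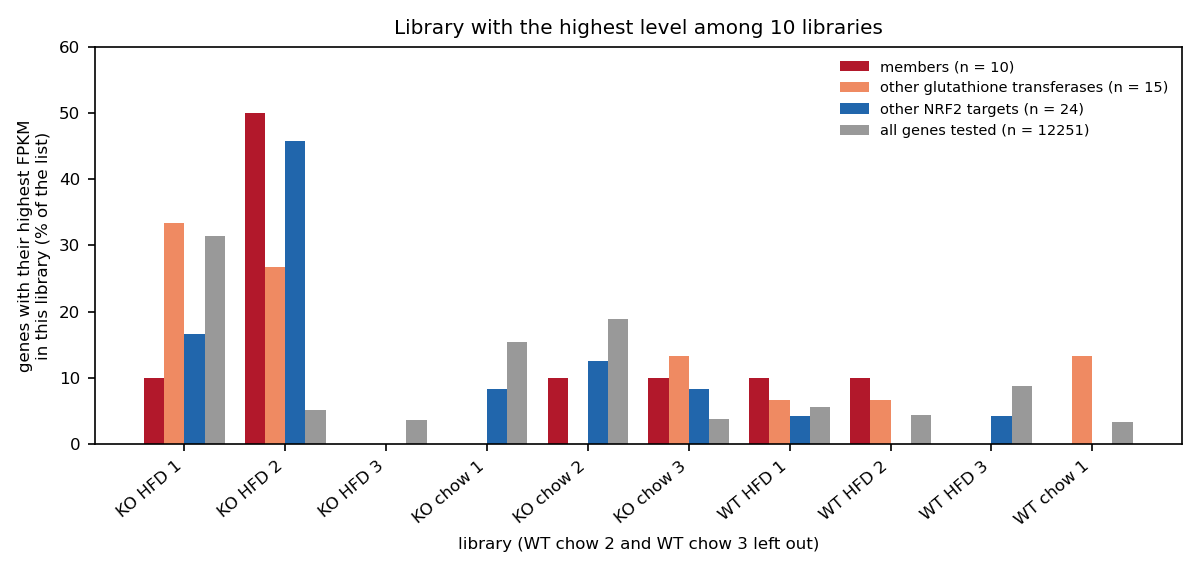
Share of the members and of 2 other gene lists whose highest FPKM among 10 libraries fell in each library, beside the share of all 12251 genes tested (grey). KO HFD 2 held the highest value for 50% of the members and 45.8% of the other NRF2 targets, against 5.09% of all genes, whereas KO HFD 1 held 31.4% of all genes.

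The wider pathway was read from lists of genes that are no members. Of 24 other NRF2 targets, 11 were highest of the 10 libraries in KO HFD 2 (45.8%), 2 of them by at least 1.5 times the next library. The shares of all genes tested were 5.09% and 0.302%. Cbr3, a carbonyl reductase, had 2.55, 14.4 and 0.775 FPKM in KO HFD 1 to 3 and 0.631 to 1.65 FPKM in the other 7 libraries. Abcc4, an exporter of conjugates, had 0.443, 1.84 and 0.148 FPKM in KO HFD and 0.218 to 0.928 FPKM in the other 7. WT chow 3, outside the 10 libraries, was above KO HFD 2 for both genes, with 19.8 FPKM of Cbr3 and 9.36 FPKM of Abcc4. The ferritin light chain gene Ftl1, the most abundant of the list, had 4928, 7846 and 5584 FPKM in KO HFD and 3908 to 5241 FPKM in the other 7. Targets that were not highest there included Hmox1, the inducible haem oxygenase, with 13.0 FPKM in KO HFD 2 and 16.0 FPKM in WT HFD 3. Txnrd1, thioredoxin reductase, had 43.0 FPKM in KO HFD 2 and 43.7 FPKM in KO chow 3. Me1, Abcc2 and Osgin1 were below their median of the 10 libraries in KO HFD 2, at 0.263, 0.830 and 0.942 times. The other targets were above it, and the median of the 24 was 1.30 times. Apart from Ftl1, these targets were named after their values were seen.

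Of 15 other glutathione transferases tested, 4 were highest in KO HFD 2 (26.7%, against 5.09% of all genes tested), with Gsta1 by far the most. Gsta1, the closest to Gsta2 in coding sequence among the transferases compared, had 17.8, 132 and 3.17 FPKM in KO HFD 1 to 3. It had 1.19 to 10.3 FPKM in the other 7 libraries, so KO HFD 2 was 7.45 times the next. The other 3 were Gstm4, Mgst1 and Mgst3, each by less than 1.5 times. Of 14 genes of glutathione supply and use, 4 were highest there (28.6%), none by 1.5 times. These genes were named after their values were seen.

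Of the 8 genes that regulate or partner NRF2, 0 were highest in KO HFD 2, against 5.09% of all genes tested. With 8 genes, 0 cannot be told apart from that share. Nfe2l2, which encodes NRF2, had 32.1, 31.3 and 15.6 FPKM in KO HFD, 20.4, 26.1 and 26.3 FPKM in KO chow, 20.2, 23.1 and 25.7 FPKM in WT HFD, and 24.9, 19.8 and 17.8 FPKM in WT chow. KO HFD 1 and KO HFD 2 had nearly the same Nfe2l2 level, and its part in the levels of the members was not tested. Keap1 had 10.8, 10.8 and 10.1 FPKM in KO HFD, 11.1, 11.5 and 10.7 FPKM in KO chow, 10.3, 9.51 and 10.9 FPKM in WT HFD, and 9.82, 9.34 and 7.87 FPKM in WT chow. NRF2 is controlled mainly through the stability of the protein, which these data do not measure.

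**Figure D3:**
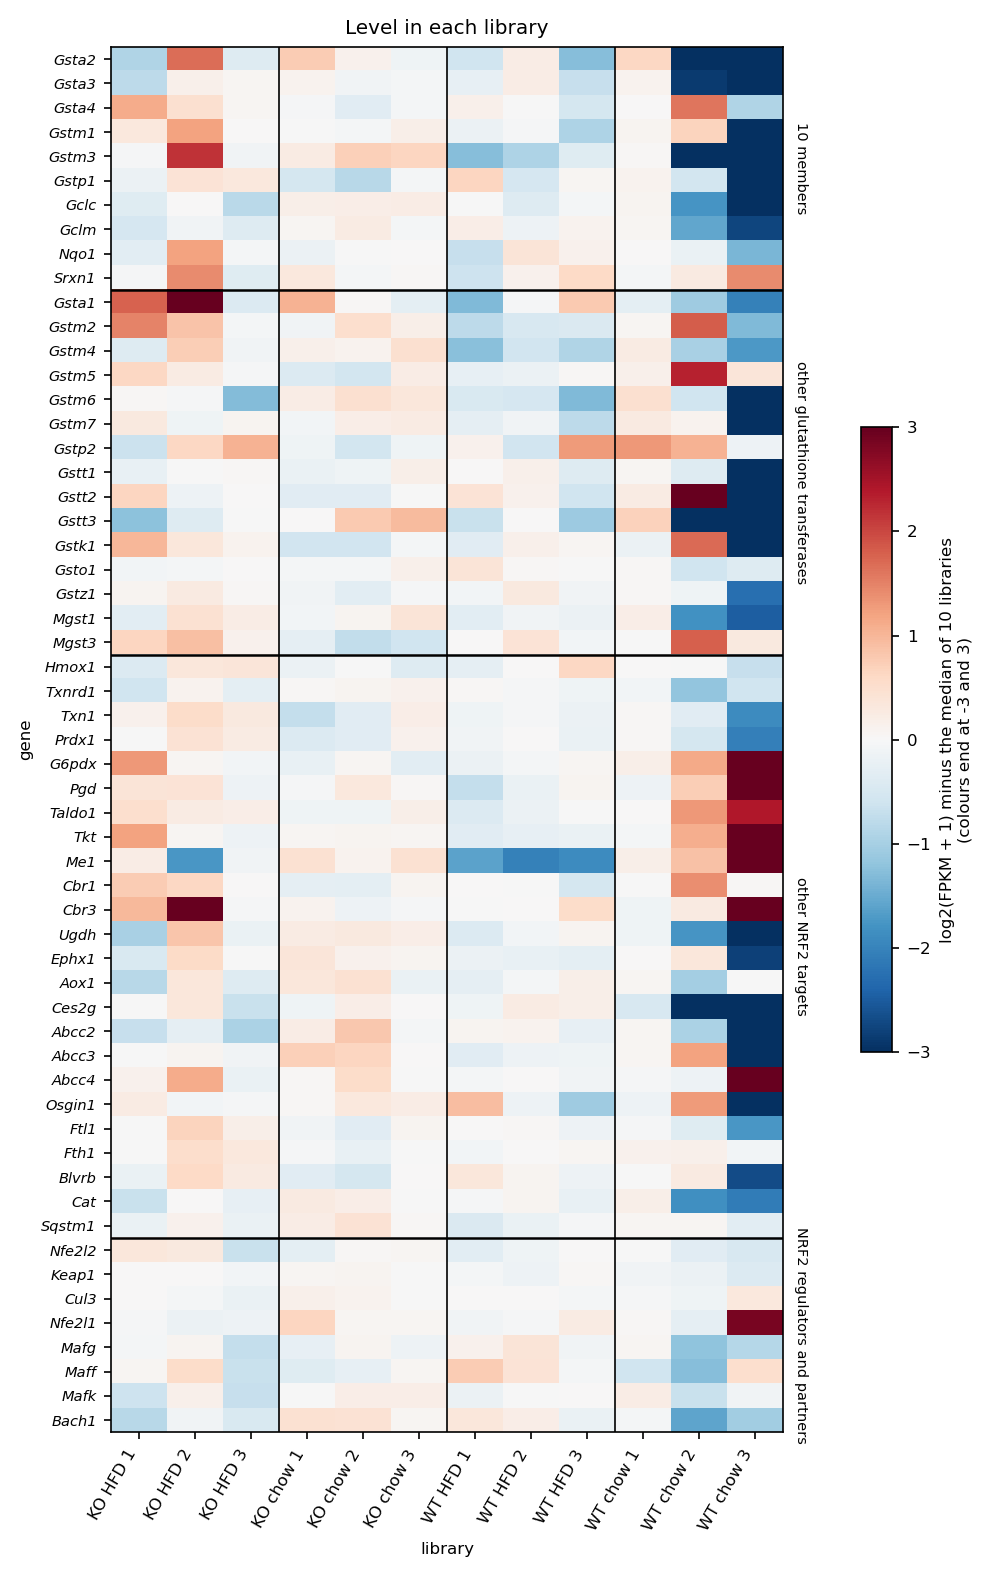
log2(FPKM + 1) of the members, the other glutathione transferases, the other NRF2 targets and the NRF2 regulators in every library, relative to the median of the 10 libraries without WT chow 2 and 3. Columns run KO HFD, KO chow, WT HFD and WT chow. Red marks in the second column show KO HFD 2, darkest for Gsta1, Cbr3, Gstm3 and Gsta2, and the last 2 columns show the mixed losses and gains of WT chow 2 and WT chow 3.

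Comparing KO HFD with KO chow asks what the diet does in mice labelled knockout. None of the 10 members passed in the fit with 12 libraries, where 0.155% of all genes were called. There 0 members and 924 of 12251 genes had an unadjusted p under 0.05 (limma). With 10 libraries, 7.76% of all genes were called, 1.52% higher and 6.24% lower, and again 0 members (limma, also 0 with limma-voom on the recovered reads), with 3 (Gclc, Gclm and Gsta4) under an unadjusted 0.05. Of the 12251 genes tested, 3576 were under an unadjusted 0.05 in that limma fit, so this is common among all genes. With a further library left out, genes called numbered 39, 396 and 88 without KO HFD 1, 2 and 3, 18, 17 and 1535 without KO chow 1, 2 and 3, and 31, 30 and 113 without WT HFD 1, 2 and 3. The median log2 difference of the members was 0.20, against −0.06 for all genes, and it was −0.31 in the 9 libraries without KO HFD 2. Among the listed genes of the pathway with 10 libraries, 1 of 15 other transferases rose, 1 of 14 supply genes rose and 1 of 24 other NRF2 targets fell.

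Mgst3, a microsomal transferase, rose by 1.10 on the log2 scale (SE 0.22, limma adjusted p = 0.0342), with 26.3, 31.4 and 17.9 FPKM in KO HFD and 13.4, 9.33 and 10.4 FPKM in KO chow. Esd, an esterase that splits formyl-glutathione, rose by 0.63 (SE 0.16, limma adjusted p = 0.0455), with 218, 230 and 172 FPKM in KO HFD and 134, 116 and 150 FPKM in KO chow. Abcc2, the canalicular exporter of glutathione conjugates, fell by 0.96 (SE 0.24, limma adjusted p = 0.0481), with 33.6, 45.6 and 28.1 FPKM in KO HFD and 64.6, 96.3 and 52.9 FPKM in KO chow. None of these 3 passed with 12 libraries, and in the 9 fits that left out a further library Mgst3 passed in 2, Esd in 1 and Abcc2 in 1 on the FPKM scale, and in 5, 0 and 6 on the TPM scale. Of 5 targets of the nuclear receptors CAR and PXR, which can also raise transferase genes, 2 were called lower and 0 higher. Differences were positive for 2 of the 5, Por and Cyp3a13, which were named after their values were seen. Por had 175, 121 and 141 FPKM in KO HFD and 120, 107 and 96.3 FPKM in KO chow. The part of CAR or PXR in the members' levels was not tested. Cyp2c55, a P450, fell by 2.69 (SE 0.25, limma adjusted p = 0.00155), with 0.525, 0.575 and 1.79 FPKM in KO HFD and 10.8, 14.4 and 9.0 FPKM in KO chow, and Cyp2b10, the classic CAR target, fell by 2.18 (SE 0.44, limma adjusted p = 0.0340), with 0.0864, 0.245 and 3.49 FPKM in KO HFD and 7.56, 6.83 and 7.38 FPKM in KO chow. Neither passed with 12 libraries, and of the 9 fits that left out a further library Cyp2c55 passed in 9 on either scale and Cyp2b10 in 2 on the FPKM and 7 on the TPM scale. Cyp2c55 was also low in WT HFD, at 0.393, 0.258 and 0.513 FPKM, against 9.43 FPKM in WT chow 1. For Cyp2b10 these values were 0.109, 0.119 and 0.178 FPKM against 7.72 FPKM. Of the 2 AHR targets, 5 male-biased and 2 female-biased liver genes tested, 0 passed. Exocrine pancreas markers were above 0 in each KO HFD library and at 0 in each KO chow library, and their part in these differences was not tested.

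Comparing KO HFD with WT HFD asks what the knockout label goes with on the high fat diet. None of the members passed, against 0.155% of all genes with 12 libraries (0 members and 156 genes under an unadjusted 0.05) and 0.18% with 10. Their median log2 difference was 0.32, against −0.03 for all genes, and it was −0.10 in the 9 libraries without KO HFD 2. With 10 libraries, 4 members and 1536 of all 12251 genes had an unadjusted p under 0.05 (limma). Of these members Gstm3, Gstm1 and Gsta4 were higher and Gclm lower, and the 2 largest differences were those of Gstm3 and Gstm1 given above. The log2 difference of Gsta4 was 0.68 (SE 0.27, limma adjusted p = 0.381) and that of Gclm −0.38 (SE 0.15, adjusted p = 0.381). Hepatocyte markers summed to 31709 to 46258 FPKM in KO HFD and to 54112 to 61819.8 FPKM in WT HFD, and the part of this gap in the members' levels was not tested.

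**Figure D4:**
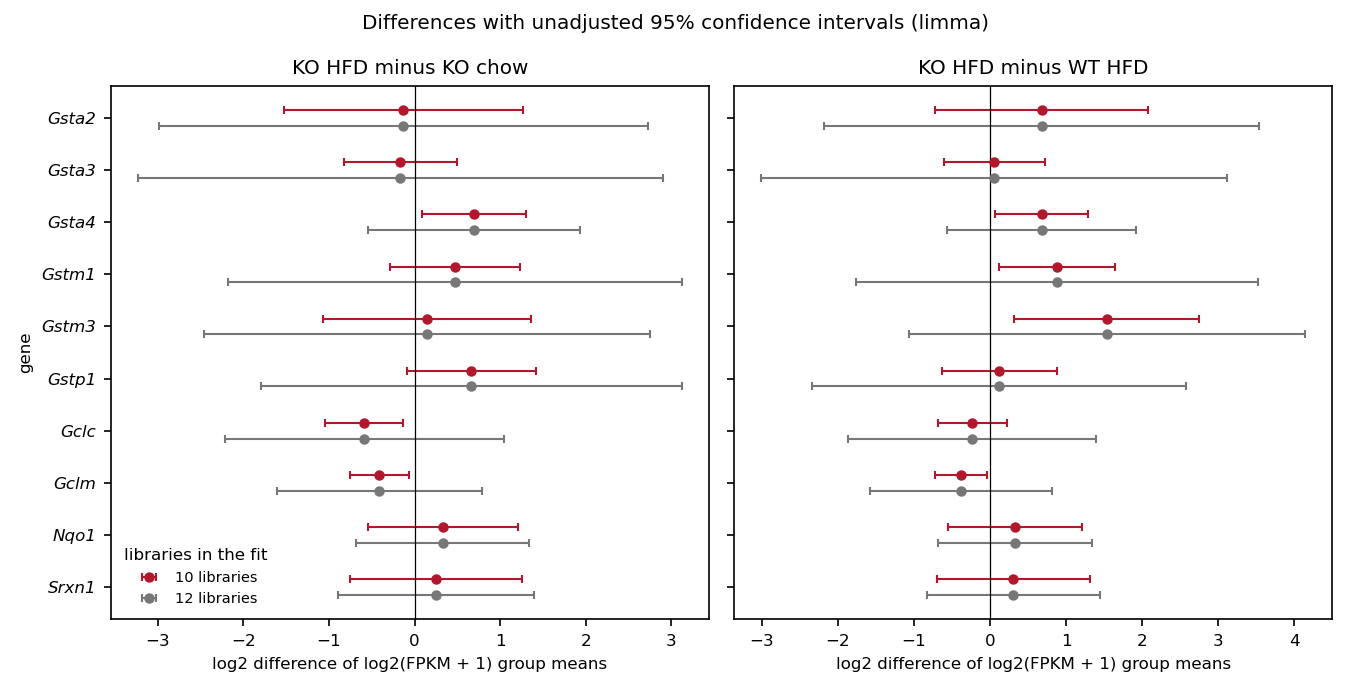
log2 difference of each member with its unadjusted 95% confidence interval from limma, for KO HFD minus KO chow (left) and KO HFD minus WT HFD (right), with 10 libraries (red) and with 12 libraries (grey). The point is the same in both fits, and the intervals of the fit with 12 libraries are wider and all include 0. With 10 libraries the intervals of Gsta4, Gclc and Gclm exclude 0 on the left, and those of Gsta4, Gstm1, Gstm3 and Gclm on the right, none past the threshold after adjustment over all genes. Of all 12251 genes, 3576 had an unadjusted limma p under 0.05 on the left and 1536 on the right with 10 libraries.

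The comparisons that use WT chow rest on 3 unlike libraries. Between WT HFD and WT chow, 0 members and 0 genes passed with 12 libraries (1807 genes and 3 members under an unadjusted 0.05, limma), and no member was free of overlap, whereas 6.82% of all genes were higher and 4.35% lower without overlap. Between KO chow and WT chow, 0 members and 0 genes passed (2584 genes and 5 members under an unadjusted 0.05), with Gclc and Gstm3 higher in KO chow without overlap, as were 12.4% of all genes (4.43% were lower). The median log2 difference of the members was 1.57 for WT HFD minus WT chow and 1.47 for KO chow minus WT chow with 12 libraries. With WT chow 1 as the only WT chow library, assumed to vary like the other groups, these medians were −0.19 and −0.06, with 0 members and 0.00816% of genes called in each comparison. Without WT chow 1, when only the 2 deviating libraries were left, Gsta2, Gsta3, Gstm3, Gclc and Gclm passed in both comparisons and in the interaction. Of the 12251 genes tested, 2435 passed there in WT HFD minus WT chow, 2981 in KO chow minus WT chow and 2265 in the interaction. Such calls were thus common among all genes. The diet effect in KO minus that in WT had 0 members past the threshold with 12 libraries (1 under an unadjusted 0.05), where 0.122% of genes were called, and a member median of −1.55, against 0.55 with 10 libraries, where 0.0816% of genes and 0 members were called.

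WT chow 2 and WT chow 3 differed in which members they kept. WT chow 2 had Gsta4 at 396, Gstm1 at 1841 and Gstp1 at 1574 FPKM, while Gsta2 was at 1.46 and Gstm3 at 2.71 FPKM. Among the other transferases it had 799 FPKM of Gstt2, 596 FPKM of Gstk1 and 165 FPKM of Gstm2, against at most 135, 367 and 130 FPKM in the other 11 libraries. WT chow 3, with brown fat markers and near-absent hepatocyte markers, had every transferase among the members below the other 11 libraries but kept Srxn1 at 47.4 FPKM. Listed NRF2 targets that belong to the pentose phosphate pathway or to NADPH supply were high there, with Tkt at 843, Taldo1 at 633, Me1 at 509, Pgd at 245 and G6pdx at 101 FPKM. These genes were named after their values were seen. Nqo1 had its lowest value of the 12 libraries there, 1.44 FPKM. Mitochondrial genes held 37.5% of the reads of WT chow 3, and the part of its brown fat content in these levels was not tested.

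For each member the protein-coding gene whose log2(FPKM + 1) followed it most closely over the 10 libraries was noted, as a description of these libraries. Gclc was nearest to Morf4l1, a chromatin subunit, with Pearson r = 0.949 over 10 libraries and 0.952 over the 9 without KO HFD 2. Gclm was nearest to Wdr20 (0.948 and 0.959), Gsta4 to Fbl, the nucleolar fibrillarin (0.939 and 0.958), and Gsta2 to Creg1 (0.961 and 0.929). For Gstm3 the nearest gene was Bbs5, at 0.900 over 10 libraries and 0.782 without KO HFD 2. These genes were picked as the closest of 11425 in few libraries, so such values are high by selection.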

How the data were processed

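RNA of 12 liver samples was sequenced, and the table of FPKM for 35275 genes deposited by the authors was used as given. Per the file headers it also holds gene lengths, coordinates and types. HTSeq 0.6.1, STAR, TopHat, CASAVA and DESeq2 (version 2) are named, with the builds GRCm38 and mm10, per the submitters' processing notes. The sources used here do not say which aligner made these values, nor the annotation release or strand setting. Depth was recovered from the steps in FPKM times gene length, which were whole reads within 0.1 for 100% of values.

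Genes with a mean of at least 0.5 FPKM (12251) were fitted in limma 3.58.1 (R 4.3.3) on log2(FPKM + 1), which understates changes of low genes, with 4 group means, a variance trend and Benjamini-Hochberg adjustment over all genes (threshold 0.05). Group means of FPKM were compared by exact two-sided permutation tests. The members and lists were chosen with earlier results of these data known. The fit was tested on simulated data. Alternatives were the pseudocount, the filter, TPM scaling, a replicate block, array weights, the compared groups alone and each library left out. Fits without WT chow 2 and 3, without KO HFD 2 as well, and limma-voom on recovered reads were chosen after seeing the data. Named were all members, Hnf4a, Nfe2l2, Keap1, listed genes that passed (up to 4) or the most abundant, and the gene most like each of up to 5 members. Other genes are said to be named after their values were seen. Same-numbered libraries did not deviate together. One hepatocyte marker is not reported here and was left out of the sums. Proteins were not compared, and coding sequences of GENCODE transcripts were used instead. Python 3.11.15 with matplotlib 3.10.9 drew the figures.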

Additional observations from a re-analysis of the deposited data

How the results depend on the processing

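No member passed under any alternative in the comparisons of KO HFD with KO chow or with WT HFD, except Gclc and Gclm (2 members) with 10 libraries rescaled to TPM and in 5 and 2 of the 9 TPM fits that left out a further library. Counts of genes called moved more. For KO HFD minus KO chow, with 19 genes as reported, they were 31 with no filter, 3 with a mean of at least 2 FPKM, 2420 with array weights, 951 with 10 libraries, 396 without KO HFD 2 as well, 2231 with 10 libraries rescaled to TPM, 12 with limma-voom and 1212 with limma-voom on 10 libraries. For KO HFD minus WT HFD, also 19, they were 3 with a mean of at least 2 FPKM and 33 with array weights. For the interaction, with 15, they were 6 with a pseudocount of 0.1, 25 with no filter, 1 with a mean of at least 2 FPKM, 7 with array weights, 0 with limma-voom and 2 with limma-voom on 10 libraries. For KO chow minus WT chow 4 genes passed with no filter, and 1 to 2 genes passed there and in WT HFD minus WT chow in the fits with 10 or 9 libraries. With the replicate block 4 genes were called in the interaction. The block changed no call of a member, and of 18 same-numbered pairs 2 had deviations correlated above 0.1.

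Leaving out each library in turn gave 0 to 5 members called in the interaction and in both WT chow comparisons, with 5 to 2265, 0 to 2435 (WT diet) and 0 to 2981 genes (chow), the upper ends without WT chow 1. The median of the members in the interaction ranged from −2.39 to −0.31. These fits crossed 0 for KO HFD minus KO chow in Gsta2 (−0.90 to 0.38), Gsta3 (−0.34 to 0.13), Gstm3 (−0.61 to 0.53), Nqo1 (−0.14 to 0.62) and Srxn1 (−0.29 to 0.61), and for KO HFD minus WT HFD in Gsta2 (−0.091 to 1.19), Gsta3 (−0.17 to 0.35), Gstp1 (−0.17 to 0.41), Nqo1 (−0.14 to 0.62) and Srxn1 (−0.23 to 0.66). With 9 libraries, KO HFD 2 also left out, Gstm3 was −0.61, Nqo1 −0.14 and Srxn1 −0.29 for KO HFD minus KO chow, and Gsta2 −0.091, Gsta3 −0.12, Nqo1 −0.14 and Srxn1 −0.23 for KO HFD minus WT HFD. On the TPM scale Gstm3 was −0.050 against KO chow and Gsta3 −0.063 against WT HFD. With array weights Gsta2 was 0.63 and Gsta3 0.046 against KO chow, and Gclc 0.065 against WT HFD. The cause of these shifts was not tested. Depth limits only Gsta2 and Gstm3 in WT chow 3, with 0 reads each.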

Other observations

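Of the 37 genes that were highest of the 10 libraries in KO HFD 2 by at least 1.5 times the next, some that are no members are given here as single values. Gdf15, a secreted stress cytokine, had 44.4 FPKM in KO HFD 2 and 15.6 FPKM in the next library, and Jun, a subunit of the AP-1 factor, had 22.9 and 9.76 FPKM. Gm10639, a predicted gene that shares sequence with Gsta2, had 9.98 and 1.83 FPKM. Ifi27 had 471 and 245 FPKM, Bst2 567 and 357 FPKM, Ifit1 8.15 and 5.31 FPKM and Oas1a 5.12 and 3.41 FPKM. Sult1e1, the oestrogen sulfotransferase, had 7.49 and 3.55 FPKM, and Cyp2a4, a steroid hydroxylase, had 32.8 and 17.4 FPKM. The major urinary protein gene Mup20 had 10183 and 5577 FPKM. These genes were chosen after their values were seen, no list was counted, and no test was made on a single library.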
